A study of Mus musculus with 6 samples.

Results

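The core circadian clock genes were followed in Raw264.7 cells, a mouse macrophage line, after knockdown of *Etv5*, which encodes an ETS family transcription factor. The members were chosen by gene symbol and were *Arntl*, *Clock*, *Per1*, *Per2*, *Per3*, *Cry1*, *Cry2*, *Nr1d1*, *Nr1d2* and *Dbp*, which are 10 of the 24786 genes in the deposited expression table, and all 10 were found there. The sh-NC group (n = 3 libraries) carried a control short hairpin RNA and the sh-*Etv5* group (n = 3 libraries) one against *Etv5*, called control and knockdown libraries here, both delivered by lentivirus into the same line, which came from a tumor induced by Abelson murine leukemia virus and is labelled C57BL/6. The labels place the measurements at 24 or 48 h after infection, without saying which applied to the sequenced cells, which the study's text calls stably transfected. Which hairpin was used, and whether replicates were infected separately, is not given in the sources used here, so the p-values measure the spread between these libraries, which may be technical. The hour of harvest and any synchronisation of the cultures are not given either, and each group was sampled as 1 condition without a time course.

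In mammalian cells the clock is a loop of transcription. The proteins BMAL1 (encoded by *Arntl*) and CLOCK bind E-box sequences as a pair and switch on the *Per* and *Cry* genes, whose products then inhibit that pair. The same pair switches on *Nr1d1* and *Nr1d2*, which encode the nuclear receptors REV-ERBα and REV-ERBβ, and these repress *Arntl* through RORE (RRE) sequences in competition with the ROR receptors. In macrophages the loop is known for gating inflammatory output, with REV-ERB receptors repressing chemokine and cytokine genes.

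Expression was given as RPKM (reads per kilobase, scaled for library depth), so levels can be compared between genes per length. The gene lengths used are not given, and the order of different genes within a library depends on them. The change of a ratio of RPKM between the groups does not. In these bulk samples, fewer cells with a transcript and less of it per cell cannot be told apart. The *Etv5* level was 9.49 ± 0.367 RPKM in control and 5.13 ± 0.196 RPKM in knockdown cells (SD, n = 3). The groups did not overlap (log2 fold change -0.78, limma adjusted p = 2.74e-07), so the targeted gene followed the labels. The most common ratio between low values put the depth of the libraries between 0.897 and 1.06 times that of sh-NC replicate 1, while the number of reads itself is unknown. Of the 9 macrophage markers examined, 8 passed the filter on low values, and they went in both directions, with 4 called higher, 3 called lower and *Ptprc* not called (median log2 fold change 0.11). Over all tested genes 33.3% were called higher and 41.0% lower. Means differed 4.35-fold for *Adgre1*, 3.77-fold for *Itgam*, 1.19-fold for *Cd14* and 1.11-fold for *Spi1*, which were higher in knockdown libraries. Those of *Csf1r* (0.568-fold), *Cd68* (0.675-fold) and *Lyz2* (0.72-fold) were lower. Of the annotated exonic bases of *Itgam* 68.7% are shared with *Gm49368* on the same strand, and 15.1% of those of *Csf1r* with *Hmgxb3* on the opposite strand. How reads in these shared bases were assigned was not tested. The 9 markers summed to between 4440 and 4570 RPKM in sh-NC libraries and between 3560 and 3670 RPKM in sh-*Etv5* libraries, a sum of which *Lyz2* alone made up 2830 and 2040 RPKM on average. Markers of fibroblasts, epithelium and lymphocytes summed to at most 0.367 RPKM in any library. Those of endothelium summed to between 0.171 and 0.363 RPKM in control and between 1.09 and 1.24 RPKM in knockdown libraries, with *Pecam1*, *Cdh5* and *Kdr* all under the filter and without overlap between the groups. The neutrophil list summed to between 0.289 and 0.63 RPKM in sh-NC libraries and between 15.6 and 19.9 RPKM in sh-*Etv5* libraries. *S100a8* made up 15.5 to 19.7 RPKM of the latter, while *Ly6g*, *Elane* and *S100a9* were listed at 0 in every library. The part of these markers in the results below was not tested.

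*Nr1d1*, *Arntl*, *Per1*, *Cry2* and *Cry1* rose in sh-*Etv5* cells, *Nr1d2* fell, and *Clock* and *Dbp* did not pass the test. Means of *Nr1d1* differed 4.32-fold, of *Arntl* 2.88-fold, of *Per1* 2.43-fold and of *Cry2* 2.06-fold, whereas that of *Cry1* differed 1.21-fold. *Per2* and *Per3* stayed under the filter on low values (3 or more libraries with 1 RPKM or more) and are given as values only. Each of the 8 tested members reached an RPKM of 1 in every library, so none was admitted through 1 group alone. Differences were tested with limma on log2(RPKM + 1) over all 10738 genes that passed the filter, and a Benjamini-Hochberg adjusted p-value under 0.05 was called. The log2 fold change (sh-*Etv5* minus sh-NC, with its standard error, SE) understates on this scale the change of genes at a low level.

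Of the 8 tested members 5 were called higher, against 33.3% of all tested genes, and 1 was called lower, against 41.0%. Differences were common in this comparison, since 74.3% of all tested genes were called in either direction. The median log2 fold change was 0.56 over the 8 members and -0.05 over all tested genes. For 7 of the 8 no knockdown value lay within the control range or the reverse, which was also the case for 76.4% of all tested genes.

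**Figure D1:**
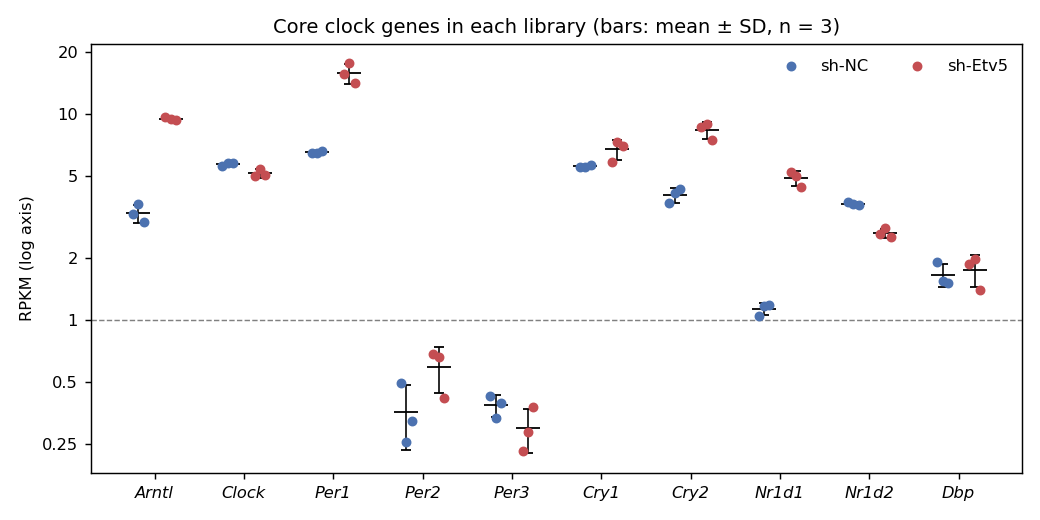
RPKM of the 10 core clock genes on a log axis, with a point for each sh-NC (blue) and sh-Etv5 (red) library, a horizontal bar for the mean and a vertical bar for the SD (n = 3). The dashed line marks the 1 RPKM of the filter. *Arntl*, *Per1*, *Cry2* and *Nr1d1* are separated upward in sh-Etv5 libraries, *Nr1d2* is separated downward, and *Per2* and *Per3* lie under the line.

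*Arntl* (GRCm38 chromosome 7, 113207465 to 113314126, plus strand) encodes the activator BMAL1. Its level was 3.28, 3.64 and 2.98 RPKM in control libraries and 9.65, 9.48 and 9.35 RPKM in knockdown libraries. The lowest sh-*Etv5* library was far above the highest sh-NC library, and the sh-*Etv5* libraries lay close to each other. Its log2 fold change was 1.29 (SE 0.0673, limma adjusted p = 1.7e-08). *Clock* (chromosome 5, 76209868 to 76304792, minus strand), which encodes the partner of BMAL1, was at 5.57, 5.77 and 5.76 RPKM in sh-NC and at 5.00, 5.43 and 5.03 RPKM in sh-*Etv5* libraries. These groups did not overlap, but the distance was small, with a log2 fold change of -0.12 (95% confidence interval -0.25 to 0.01, limma adjusted p = 0.0787). This call depended on the processing, since the limma adjusted p of *Clock* was 0.026 with libraries rescaled to the same sum of RPKM, 0.0168 with quantile normalization, 0.0406 without the intensity trend and 0.0427 without sh-*Etv5* replicate 2.

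The partners of the activator pair therefore changed places in order of RPKM, an order that depends on the gene lengths used. The ratio of *Arntl* to *Clock* RPKM was 0.588, 0.632 and 0.516 in control libraries and 1.93, 1.74 and 1.86 in knockdown libraries. *Clock* was above *Arntl* in each control library and below it in each knockdown library. *Npas2* and *Arntl2*, which encode close relatives of CLOCK and BMAL1, did not exceed 0.0564 RPKM in any library.

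*Per1* (chromosome 11, 69095217 to 69109960, plus strand) encodes a repressor of the activator pair and was the member with the highest level in both groups. It was at 6.5, 6.43 and 6.58 RPKM in control libraries and at 15.6, 17.6 and 14.1 RPKM in knockdown libraries. All sh-*Etv5* libraries were above all sh-NC libraries, and they were spread more widely (SD 1.77 against 0.0795 RPKM). The log2 fold change of *Per1* was 1.16 (SE 0.0709, limma adjusted p = 6.54e-08). In sh-NC cells 35.8% of the tested genes had a lower mean than *Per1*, and in sh-*Etv5* cells 62.8% had.

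The other *Per* genes were at low levels. *Per2* (chromosome 1, 91415982 to 91459324, minus strand), also a repressor, was at 0.496, 0.256 and 0.322 RPKM in control libraries and at 0.684, 0.661 and 0.419 RPKM in sh-*Etv5* libraries. *Per3* (chromosome 4, 151003652 to 151044665, minus strand), whose product is the least required of the PER proteins for the loop, was at 0.427, 0.334 and 0.393 RPKM in sh-NC and at 0.231, 0.286 and 0.376 RPKM in sh-*Etv5* libraries. The groups overlapped for both genes, with *Per2* higher and *Per3* lower on average in sh-*Etv5* cells. Fitted without the filter, where 30.9% of 24786 genes were called, the log2 fold change was 0.23 for *Per2* (limma adjusted p = 0.207) and -0.09 for *Per3* (limma adjusted p = 0.297). Neither gene was called in that fit.

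*Cry2* (chromosome 2, 92403646 to 92434043, minus strand) and *Cry1* (chromosome 10, 85131700 to 85185064, minus strand) encode cryptochromes, which bind the PER proteins and inhibit the activator pair. *Cry2* was at 3.68, 4.14 and 4.33 RPKM in control libraries and at 8.67, 8.91 and 7.44 RPKM in knockdown libraries. Its log2 fold change was 0.88 (SE 0.0774, limma adjusted p = 1.26e-06), and the groups lay well apart. *Cry1* was at 5.52, 5.54 and 5.64 RPKM in control libraries and at 5.87, 7.34 and 7.0 RPKM in knockdown libraries. Its groups did not overlap, but sh-*Etv5* replicate 1 was only slightly above the control libraries. The log2 fold change of *Cry1* was 0.23 (SE 0.0745, limma adjusted p = 0.0152). The call was lost with libraries rescaled to the same sum (limma adjusted p = 0.0516), without a filter on low values (limma adjusted p = 0.107) and without sh-*Etv5* replicate 2 (log2 fold change 0.18, limma adjusted p = 0.0613).

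The cryptochrome genes thereby exchanged their order of RPKM, with the same limit. *Cry1* RPKM was 1.5, 1.34 and 1.3 times that of *Cry2* in control libraries and 0.677, 0.824 and 0.941 times in knockdown libraries, and these groups of ratios did not overlap. The 5 *Per* and *Cry* genes together summed to 16.9 ± 0.355 RPKM in control and 31.8 ± 2.80 RPKM in knockdown cells (SD, n = 3), and *Arntl* with *Clock* to 9.0 ± 0.36 and 14.6 ± 0.271 RPKM. Relative to the summed activators, the summed repressors were 1.88 ± 0.101 in sh-NC and 2.17 ± 0.151 in sh-*Etv5* cells, and these ratios did not overlap between the groups. These sums and ratios are descriptions and were not tested. The smallest 2-sided p that an exact permutation of 3 against 3 can reach is 0.1, for these as for single genes. The smaller limma p-values rest on the model that limma fits.

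**Figure D2:**
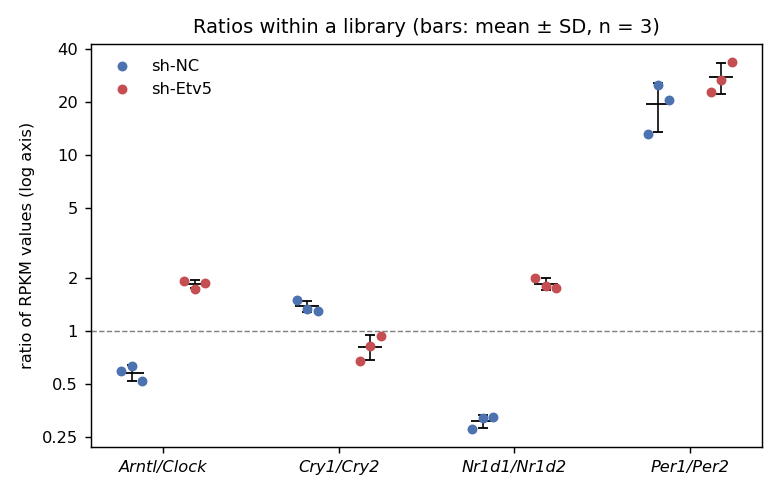
Ratios of RPKM values within each library, on a log axis, for *Arntl* to *Clock* and for the paralog pairs of the *Cry*, *Nr1d* and *Per* genes. Points are libraries and bars are the mean and SD (n = 3). The first 3 ratios cross the dashed line at 1 between the sh-NC and sh-Etv5 libraries, and the groups overlap for *Per1* to *Per2*.

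*Nr1d1* (chromosome 11, 98767932 to 98775333, minus strand) encodes REV-ERBα, the main repressor of *Arntl*. It was at 1.04, 1.17 and 1.18 RPKM in control libraries and at 5.23, 5.00 and 4.41 RPKM in knockdown libraries. The control libraries were just above the filter and the knockdown libraries were all far higher. Its log2 fold change of 1.46 was the largest among the members (SE 0.0775, limma adjusted p = 1.91e-08). *Nr1d2* (chromosome 14, 18204054 to 18239127, minus strand) encodes REV-ERBβ, which shares targets with REV-ERBα. It was at 3.74, 3.66 and 3.62 RPKM in control libraries and at 2.60, 2.78 and 2.52 RPKM in knockdown libraries, without overlap. *Nr1d2* was the 1 member called lower, with a log2 fold change of -0.36 (SE 0.0655, limma adjusted p = 0.000425). Of its 50-base transcript sequences 5.13% also occur in the annotated gene *AC170187.1*.

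The REV-ERB genes moved in opposite directions. The ratio of *Nr1d1* to *Nr1d2* RPKM was 0.278, 0.320 and 0.325 in control libraries and 2.01, 1.80 and 1.75 in knockdown libraries. *Nr1d2* was thus the higher of the pair in every control library and the lower in every knockdown library.

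*Nr1d1* lies end to end with *Thra*, the gene of thyroid hormone receptor alpha, on the opposite strand. In GENCODE the exons share 263 bases, which are 8.55% of the exonic bases of *Nr1d1*. *Thra* was at 1.57, 1.68 and 1.67 RPKM in control libraries and at 6.02, 6.49 and 5.03 RPKM in knockdown libraries, and it rose as well (log2 fold change 1.37, limma adjusted p = 7.11e-08). The pair was therefore higher together in every sh-*Etv5* library. The library kit named by the study does not mark strand, so reads in the shared stretch cannot be told apart. At even coverage, *Thra* at its mean level would add 0.14 RPKM to *Nr1d1* in sh-NC and 0.50 RPKM in sh-*Etv5* cells, against *Nr1d1* means of 1.13 and 4.88 RPKM. How the reads were in fact shared was not tested.

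*Dbp* (chromosome 7, 45705088 to 45710203, plus strand) encodes an activator of the PAR bZIP family and is a standard output gene of the loop. It was at 1.91, 1.55 and 1.51 RPKM in control libraries and at 1.87, 1.98 and 1.40 RPKM in knockdown libraries. The groups overlapped, and *Dbp* was not called (log2 fold change 0.04, limma adjusted p = 0.7, 95% confidence interval -0.18 to 0.27). Exons of *Dbp* share 539 bases, or 18% of its exonic bases, with *Sphk2*, a sphingosine kinase gene on the opposite strand. *Sphk2* was at 10.9, 9.88 and 9.92 RPKM in sh-NC and at 20.4, 21.7 and 19.0 RPKM in sh-*Etv5* libraries (log2 fold change 0.93, limma adjusted p = 8.9e-08). At even coverage *Sphk2* would add 1.84 RPKM to *Dbp* in sh-NC and 3.66 RPKM in sh-*Etv5* cells, which is more than the *Dbp* means of 1.66 and 1.75 RPKM. The listed *Dbp* values are thus below what even coverage of *Sphk2* alone would give, and how reads in the shared bases were assigned was not tested.

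**Figure D3:**
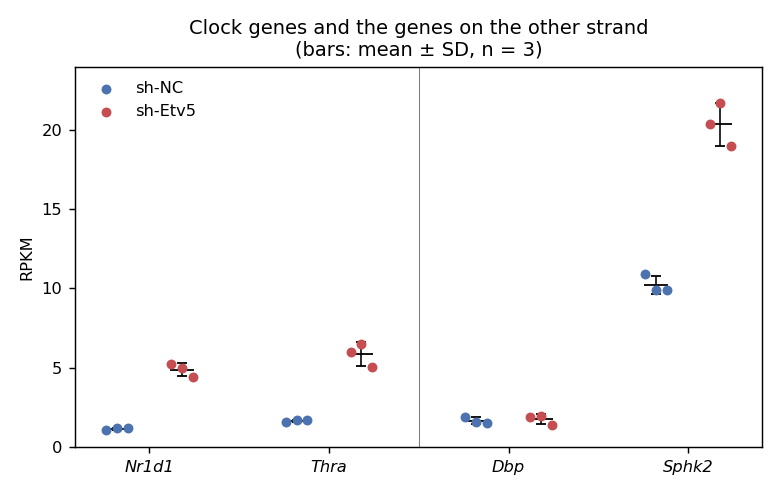
RPKM of *Nr1d1* and *Dbp* beside *Thra* and *Sphk2*, the genes that share exonic bases with them on the opposite strand, on a linear axis. Points are libraries and bars are the mean and SD (n = 3). *Nr1d1* and *Thra* are both higher in sh-Etv5 libraries, whereas *Dbp* overlaps between the groups and *Sphk2* does not.

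The members lay at low to moderate levels among expressed genes. In sh-NC cells the order of mean levels was *Per1*, *Clock*, *Cry1*, *Cry2*, *Nr1d2*, *Arntl*, *Dbp*, *Nr1d1*, *Per3* and *Per2*, where the libraries of the neighbors *Clock* and *Cry1*, *Cry2* and *Nr1d2*, *Nr1d2* and *Arntl*, and *Per3* and *Per2* overlapped. In sh-*Etv5* cells the order was *Per1*, *Arntl*, *Cry2*, *Cry1*, *Clock*, *Nr1d1*, *Nr1d2*, *Dbp*, *Per2* and *Per3*, where among neighbors only *Clock* and *Nr1d1* overlapped. *Arntl* moved from rank 6 to rank 2, and 19.0% of tested genes had a lower mean than *Arntl* in sh-NC cells against 46.4% in sh-*Etv5* cells.

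The libraries of a group differed more for some members than for others. The pooled SD between libraries of a group on the log2(RPKM + 1) scale had a median of 0.0679 over all tested genes and 0.094 over the 8 tested members. It was 0.144 for *Dbp*, above that of 91.8% of tested genes, and 0.112 for *Cry2* and 0.108 for *Per1*. *Nr1d2* (0.0396) and *Clock* (0.0436) varied least. Among the sh-*Etv5* libraries, replicate 3 held the lowest value for 7 of the 10 members. The share of all tested genes with their lowest value there was not computed, so this is not read as a trait of the members. Of the 6 libraries, replicate 3 had the lowest relative depth (0.897, from a ratio that 35 of 1014 compared genes shared) and the highest summed RPKM (340257). A link of these to the member values was not tested. The members called higher stayed so without that library, with log2 fold changes between 0.21 for *Cry1* and 1.52 for *Nr1d1*.

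Promoter sequences were read from RefSeq (GRCm38.p6) as windows from 250 bases before to 50 bases after an annotated start, and 9 of the 10 members had a window, with *Per2* the exception. The E-box, CACGTG, is the site of the activator pair, and CACGTT is its weaker E′-box form. TTATGTAA or TTACGTAA, the D-box, is bound by DBP and its relatives and by the repressor NFIL3. TAGGTCA or TGGGTCA was searched as the RRE core, TGACGTCA as the CRE of cAMP signaling and CCGGAAGT as an ETS site. Each was searched on both strands, and no matches overlapped each other in the windows of these genes and of the accessory factors below. An E-box was found in 2 of the 9 members (*Per1* and *Cry1*) and an E′-box in 3 (*Cry1*, *Cry2* and *Nr1d1*), against 7.15% and 4.68% of all 32851 windows. The D-box was found in 1 member (*Per3*; 1.06% of all windows) and the RRE core in 1 (*Arntl*; 6.45%). The CRE and the ETS letters were found in 0 of the 9 (1.79% and 3.89% of all windows). Only CCGGAAGT was searched for ETS factors, so other forms of ETS sites may be present in these windows. The percentages are per window, whereas a member with more than 1 annotated start was counted once over all its windows. A match is a stretch of letters and not evidence of binding. Sites outside these windows were not searched, so a gene without a match may still hold such letters elsewhere.

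The bases from -210 to -1 before the start are shown for the *Per*, *Cry* and *Nr1d1* promoters that held a match, and for *Dbp* as an example without one. *Nr1d2* and *Clock* held no match either. Capitals mark the matches, and each is read 5′ to 3′ on the strand of the gene.
*Per1* (chr11:69098739-69098948, plus strand): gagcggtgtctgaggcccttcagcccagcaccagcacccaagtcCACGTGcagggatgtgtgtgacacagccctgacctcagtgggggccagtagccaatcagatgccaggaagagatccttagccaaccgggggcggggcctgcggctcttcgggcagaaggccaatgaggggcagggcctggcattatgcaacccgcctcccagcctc
*Cry1* (chr10:85185055-85185264, minus strand): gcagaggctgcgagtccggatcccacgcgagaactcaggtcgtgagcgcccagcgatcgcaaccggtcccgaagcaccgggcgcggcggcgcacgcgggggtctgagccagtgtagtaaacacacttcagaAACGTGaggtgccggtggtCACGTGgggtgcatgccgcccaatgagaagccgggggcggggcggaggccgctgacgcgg
*Cry2* (chr2:92434070-92434279, minus strand): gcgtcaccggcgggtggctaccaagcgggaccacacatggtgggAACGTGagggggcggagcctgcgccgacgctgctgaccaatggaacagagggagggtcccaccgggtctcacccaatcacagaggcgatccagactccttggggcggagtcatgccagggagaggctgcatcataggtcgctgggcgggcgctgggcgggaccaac
*Nr1d1* (chr11:98775378-98775587, minus strand): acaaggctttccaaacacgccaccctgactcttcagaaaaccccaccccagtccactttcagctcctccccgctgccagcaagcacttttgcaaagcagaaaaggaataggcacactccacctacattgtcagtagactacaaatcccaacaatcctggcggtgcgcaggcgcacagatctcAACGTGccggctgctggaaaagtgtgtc
*Per3* (chr4:151044666-151044875, minus strand): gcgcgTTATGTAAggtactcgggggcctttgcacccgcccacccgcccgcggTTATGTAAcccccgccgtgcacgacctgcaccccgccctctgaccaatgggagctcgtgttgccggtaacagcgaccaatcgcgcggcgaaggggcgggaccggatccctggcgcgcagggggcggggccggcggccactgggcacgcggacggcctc
*Dbp* (chr7:45705037-45705246, plus strand): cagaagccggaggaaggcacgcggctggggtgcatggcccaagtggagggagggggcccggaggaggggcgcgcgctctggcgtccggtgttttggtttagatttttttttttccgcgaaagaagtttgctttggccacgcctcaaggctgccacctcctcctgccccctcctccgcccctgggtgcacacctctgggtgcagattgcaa
The match in *Per1* begins at base -166, and those in *Cry1* begin at bases -79 (E′-box) and -60 (E-box). The E′-box begins at base -166 in *Cry2* and at base -28 in *Nr1d1*, and the D-boxes of *Per3* begin at bases -205 and -158. The E′-boxes are read from the other strand, as AACGTG. The second annotated *Per1* start had none of the motifs.

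Accessory transcription factors of the loop moved in both directions. Of 12 such genes 6 passed the filter, of which 2 were called higher, 3 were called lower and *Tef* was not called (median log2 fold change -0.12). The shares over all tested genes were 33.3% higher and 41.0% lower. *Nfil3*, which encodes a repressor that acts on D-boxes and is itself a target of REV-ERB receptors, was at 5.52, 5.72 and 4.81 RPKM in control libraries and at 25.2, 23.4 and 24.3 RPKM in knockdown libraries. On the log2(RPKM + 1) scale its change was larger than that of any core member, with a log2 fold change of 2.0 (SE 0.0621, limma adjusted p = 2.98e-10). The means of *Nfil3* differed 4.54-fold, close to the 4.32-fold of *Nr1d1*. With a pseudocount of 0.1 the log2 fold changes were 2.17 for *Nfil3* and 2.02 for *Nr1d1*. *Ciart* (also named CHRONO), which encodes a repressor of the activator pair, was at 3.45, 3.86 and 3.89 RPKM in sh-NC and at 6.97, 6.57 and 6.29 RPKM in sh-*Etv5* libraries (log2 fold change 0.68, limma adjusted p = 2.82e-06). The groups did not overlap for either gene.

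The paired repressors *Bhlhe40* and *Bhlhe41* (DEC1 and DEC2), which compete for E-boxes, fell together. *Bhlhe40* was at 10.7, 11.7 and 11.5 RPKM in sh-NC and at 6.99, 7.04 and 6.37 RPKM in sh-*Etv5* libraries (log2 fold change -0.65, limma adjusted p = 1.55e-06). *Bhlhe41* went from 10.0 ± 0.0319 to 6.13 ± 0.166 RPKM (SD, n = 3; log2 fold change -0.63, limma adjusted p = 6.69e-07), and 19.0% of its exonic bases are shared with *Gm43909* on the opposite strand. *Timeless*, which is best known for DNA replication forks in mammals, fell from 22.2 ± 0.551 to 16.6 ± 0.184 RPKM (SD, n = 3; log2 fold change -0.40, limma adjusted p = 5.14e-06). *Tef*, a relative of *Dbp*, was at 3.56 ± 0.0504 and 4.07 ± 0.228 RPKM (SD, n = 3; log2 fold change 0.15, limma adjusted p = 0.0536), and the limma adjusted p was 0.0392 without sh-*Etv5* replicate 2. *Rora* and *Rorb*, whose products compete with the REV-ERB receptors, did not exceed 0.0774 and 0.0152 RPKM in any library, and *Hlf* was listed at 0 in all of them.

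The RRE cores of *Arntl* and *Nfil3* are shown because both genes rose while *Nr1d1* rose as well. Capitals mark the core, which lies after the second annotated start of *Arntl* (bases 20 to 49 are shown) and just before the start of *Nfil3* (bases -30 to -1), where it is read from the other strand. The *Ciart* promoter is shown from -210 to -1 for its E-boxes, which begin at bases -116, -58 and -44.
*Arntl* (chr7:113207530-113207559, plus strand): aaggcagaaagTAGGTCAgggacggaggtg
*Nfil3* (chr13:52981040-52981069, minus strand): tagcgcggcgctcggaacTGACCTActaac
*Ciart* (chr3:95882229-95882438, minus strand): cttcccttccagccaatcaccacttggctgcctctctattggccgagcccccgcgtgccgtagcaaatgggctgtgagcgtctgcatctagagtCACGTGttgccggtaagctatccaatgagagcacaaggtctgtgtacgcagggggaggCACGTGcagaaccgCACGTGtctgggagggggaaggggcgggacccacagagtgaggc
The core begins at base 31 in *Arntl* and at base -12 in *Nfil3*. Of the 12 accessory genes 10 had a window. E-boxes were also found in *Bhlhe41* (base -153), which fell, and at separate starts of *Tef* (bases -127 and -138), which was not called. *Timeless*, which fell, held a D-box at base -157. *Rorb* held an E′-box (base -234) and *Hlf* a CRE (base -9), and both genes were under the filter.

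**Figure D4:**
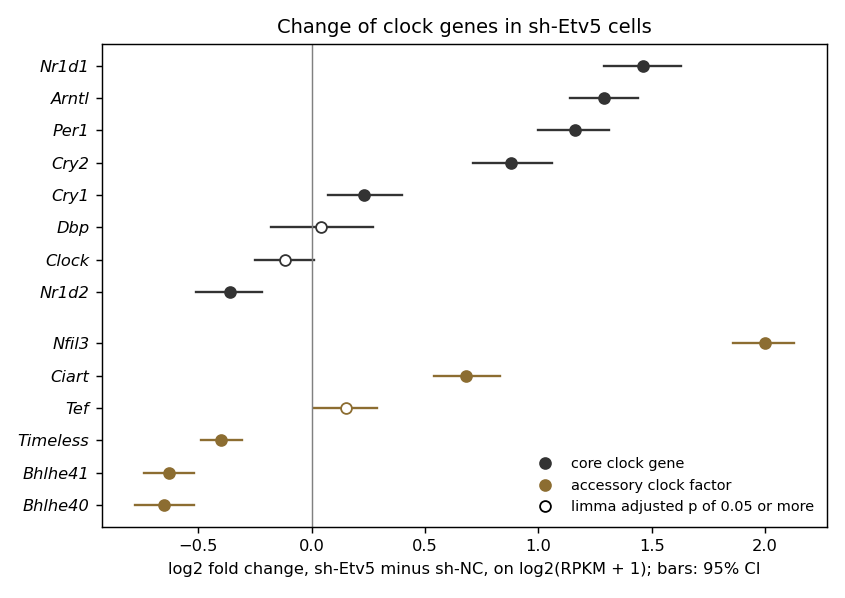
Log2 fold change (sh-Etv5 minus sh-NC, on log2(RPKM + 1)) with its 95% confidence interval for the 8 tested core clock genes (black) and the 6 tested accessory factors (brown). Open circles mark genes with a limma adjusted p of 0.05 or more. Values run from -0.36 for *Nr1d2* to 1.46 for *Nr1d1* among core genes and from -0.65 for *Bhlhe40* to 2.0 for *Nfil3* among accessory factors.

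Genes that act on the stability of PER and CRY proteins or as their cofactors were mixed. Of 12 genes 11 were tested, with 3 called higher, 5 called lower and 3 not called (median log2 fold change -0.05). This is near the shares over all tested genes, 33.3% higher and 41.0% lower. *Usp2*, a deubiquitinase that is itself driven by the clock, fell from 7.98 ± 0.281 to 2.05 ± 0.0577 RPKM (SD, n = 3; log2 fold change -1.56, limma adjusted p = 1.77e-09). *Sfpq* and *Nono*, which encode RNA-binding partners of PER complexes, fell to 49.9 ± 0.343 from 108 ± 4.20 RPKM and to 74.4 ± 1.09 from 123 ± 1.59 RPKM (SD, n = 3). Their log2 fold changes were -1.10 (limma adjusted p = 4.92e-10) and -0.71 (limma adjusted p = 4.78e-09). The kinases *Csnk1d* and *Csnk1e*, which mark PER proteins for turnover, changed little, by -0.11 (limma adjusted p = 0.0224) and 0.29 (limma adjusted p = 0.00329). Both kinase genes were named after their values were seen.

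Genes tied to the cAMP and glucocorticoid signals that reach the *Per* promoters, targets of these signals among them, also moved in both directions. Of 9 genes 8 were tested, with 4 called higher, 3 called lower and 1 not called (median log2 fold change 0.14). Among all tested genes 33.3% were called higher and 41.0% lower. *Tsc22d3*, a glucocorticoid-induced gene, rose from 1.68 ± 0.258 to 4.39 ± 0.452 RPKM (SD, n = 3), and *Crem*, a cAMP-responsive factor, rose from 1.57 ± 0.198 to 3.40 ± 0.143 RPKM. Their log2 fold changes were 1.01 (limma adjusted p = 1.64e-06) and 0.78 (limma adjusted p = 4.23e-06), and 8.01% of the exonic bases of *Crem* are shared with *Gm6225* on the opposite strand. *Crtc1*, a coactivator of CREB, fell from 5.41 ± 0.226 to 2.59 ± 0.417 RPKM (SD, n = 3; log2 fold change -0.84, limma adjusted p = 5.09e-06). *Creb1*, the gene of CREB, and *Nr3c1*, the gene of the glucocorticoid receptor, were lower as well. Their log2 fold changes were -0.39 (limma adjusted p = 9.61e-05) and -0.33 (limma adjusted p = 0.00028), and both were named after their values were seen.

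A list of clock outputs and of genes that REV-ERB receptors are known to repress in macrophages had 10 of 11 genes tested. *Upp1*, *Il6* and *Il1b* passed the filter through the sh-*Etv5* libraries alone and had to differ, so they are given as values without a test. Of the other 7, 3 were called higher, 3 were called lower and 1 was not called (median log2 fold change 0.06). The shares over all tested genes were again 33.3% higher and 41.0% lower. The chemokine gene *Ccl2* rose from 3.67 ± 0.506 to 368 ± 13.7 RPKM (SD, n = 3; log2 fold change 6.31, limma adjusted p = 6.61e-14). The cytokine gene *Il6* was listed at 0 in every control library and at 34.5, 37.5 and 40.4 RPKM in knockdown libraries. *Upp1*, a uridine phosphorylase gene, was at most 0.222 RPKM in sh-NC libraries and at 19.4 ± 1.25 RPKM in sh-*Etv5* libraries (SD, n = 3). *Il1b*, added after its values were seen, was at 0.0719, 0.215 and 0.17 RPKM in sh-NC and at 2.44, 2.21 and 2.3 RPKM in sh-*Etv5* libraries. Other genes of the list went the opposite way, and those described next were chosen after their values were seen. The chemokine receptor gene *Cx3cr1*, a known REV-ERB target, fell from 60.6 ± 1.69 to 12.0 ± 0.524 RPKM (SD, n = 3; log2 fold change -2.25, limma adjusted p = 7.42e-12). *Wee1*, a mitotic kinase gene that the activator pair switches on, fell from 14.0 ± 0.313 to 6.07 ± 0.407 RPKM (SD, n = 3; log2 fold change -1.09, limma adjusted p = 1.77e-08). The inflammasome gene *Nlrp3* changed by -0.10 (limma adjusted p = 0.0397), and *Nampt*, a clock output of NAD synthesis, was not called (log2 fold change 0.06, limma adjusted p = 0.197).

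The genes with a profile most like that of *Nr1d1* were sought over the 6 libraries, as the smallest Euclidean distance between log2(RPKM + 1) profiles centred on the sh-NC mean. These were *Ecm1* (distance 0.116), *Adamtsl5* (0.126) and *Prmt2* (0.133), with log2 fold changes of 1.48, 1.5 and 1.45. The likeness rests mainly on the difference between the groups, which the 6 libraries of each profile share.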

How the data were processed

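Polyadenylated RNA of 6 libraries was sequenced, with group and replicate as each sample's title gives them. The authors deposited RPKM values, 1 per gene symbol and library, under column names that end like coverage tracks, and the submitters' processing notes name mm10. Aligner, annotation and counter are not given in the sources used here, and the kit named does not mark strand. The values carry no read counts, so no interval for counting error was computed. Rows were matched to the members by symbol, and positions and exon overlaps were read from GENCODE release M21 (GRCm38).

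Genes that reached 1 RPKM in 3 or more libraries were tested with limma 3.58.1 in R 4.3.3, on log2(RPKM + 1), using eBayes with an intensity trend and no covariate. A Benjamini-Hochberg adjusted p-value under 0.05 over all tested genes was called. The steps were tested on simulated data. Tables and sequence steps used Python 3.11.15 and pandas 2.3.3.

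The members and lists were chosen with earlier results of these data known. Named were all members and accessory factors, the 3 called genes of each other list with the largest change, *Etv5*, and the 3 nearest profiles. *Thra*, *Sphk2* and genes marked so were named after their values were seen. Results of some list genes are not reported here. Also tried were other pseudocounts (0.1 and 0.01), the unfiltered table, genes with a mean RPKM of 5 or more, rescaling to the same sum, quantile normalization, no trend, the replicate block and each library left out.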

Additional observations from a re-analysis of the deposited data

How the results depend on the processing

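*Nr1d1*, *Arntl*, *Per1*, *Cry2* and *Nr1d2* kept their direction and their side of the threshold under every alternative that tested them, and *Dbp* was not called under any. When single libraries were left out, the log2 fold change stayed between 1.42 and 1.52 for *Nr1d1*, 1.24 and 1.35 for *Arntl*, 1.08 and 1.23 for *Per1*, 0.83 and 0.96 for *Cry2*, and -0.39 and -0.34 for *Nr1d2*. It lay between 0.18 and 0.32 for *Cry1*, between -0.16 and -0.11 for *Clock* and between -0.02 and 0.14 for *Dbp*.

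The log2 fold change of *Cry1* was 0.23 without a filter and 0.18 with libraries rescaled to the same sum, neither of them called. That of *Clock* was called at -0.18 after that rescaling, at -0.17 with quantile normalization and at -0.12 without a trend. The cause of these changes was not tested. Because of *Clock*, 2 members were called lower under each of these 3 settings, and between 1 and 2 with a library left out. With a mean RPKM of at least 5 the count was 0, since *Nr1d2* was then not tested. Between 4 and 5 members were called higher throughout. Of the other values, that of *Tef* was called without a trend (0.15).

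The untested values moved with the pseudocount, to 0.60 (pseudocount 0.1) and 0.72 (pseudocount 0.01) for *Per2* and to -0.30 and -0.38 for *Per3*. With a library left out they lay between 0.17 and 0.30 for *Per2* and between -0.14 and -0.06 for *Per3*.

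Same-numbered libraries did not deviate together (mean correlation -0.0108). With the replicate number as a block 5 members were again called higher and 1 lower, and the limma adjusted p was 1.47e-06 for *Nr1d1*, 8.26e-07 for *Arntl* and 0.0173 for *Cry1*. The block moved the counts over all tested genes from 3575 to 3539 higher and from 4399 to 4361 lower.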
